A study of Mus musculus with 12 samples.

Results

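The voltage-gated and background potassium channels that end the cardiac action potential and hold the resting potential were followed here through 6 genes, Kcna5, Kcnq1, Kcnh2, Kcne1, Kcnk3 and Kcnv2. They were picked by name from the deposited count table of 40594 Ensembl genes, with 1 row each, and all 6 were among the 15494 genes that passed the expression filter. RNA came from the right ventricle (RV) and left ventricle (LV) of adult mouse hearts. The 12 libraries form 4 groups of 3, namely WntLOF RV, WntLOF LV, control RV and control LV, where WntLOF is a Wnt loss-of-function genotype. The labels leave out the altered gene, the promoter or Cre line, the strain, the sex, and whether each library is a separate animal. The p-values therefore measure the spread between libraries, which may be partly technical. Tissue from a whole ventricle holds many cell types, so fewer cells of a type and less RNA per cell cannot be told apart.

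Delayed rectifier channels open slowly on depolarisation and carry the outward current that repolarises heart muscle cells, while background channels pass potassium at all voltages. Pore subunits assemble around a central pathway, and smaller or silent subunits change gating and trafficking. Adult mouse ventricle repolarises quickly, and its outward currents include those of Kv1.5 and the transient outward channels, whereas the channels of Kcnh2 and Kcnq1 dominate late repolarisation in larger mammals. Kcna5 encodes Kv1.5, the pore subunit of an ultrarapid delayed rectifier. Kcnq1 encodes the pore of the slow delayed rectifier and Kcnh2 that of the rapid one. Kcne1 encodes a small single-pass subunit that joins the Kcnq1 channel and slows its opening. Kcnk3 encodes TASK-1, an acid-sensitive background channel with a pair of pore loops in each subunit. Kcnv2 encodes a silent subunit that forms no channel alone and modifies other pore subunits.

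The part of the messages that codes for the potassium filter shows how the 6 genes differ in kind. In the longest coding sequence of each gene in GENCODE M21 (GRCm38), in-frame stretches were sought that read a glycine codon (GGN), then TAC, TAT, TTC or TTT, then a second glycine codon, with a threonine or serine codon 2 codons before the first. Kcna5, Kcnq1, Kcnh2 and Kcnv2 held 1 such stretch each, Kcnk3 held 2 and Kcne1, with a coding sequence of 387 bases, held 0. The windows are printed 5′ to 3′ on the coding strand, with 45 bases each and the 3 filter codons in capitals.
Kcna5, chromosome 6: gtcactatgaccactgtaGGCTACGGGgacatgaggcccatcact
Kcnq1, chromosome 7: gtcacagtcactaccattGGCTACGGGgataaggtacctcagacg
Kcnh2, chromosome 5: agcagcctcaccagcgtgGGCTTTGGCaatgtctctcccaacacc
Kcnk3 first loop, chromosome 5: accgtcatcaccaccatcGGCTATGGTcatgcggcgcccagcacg
Kcnk3 second loop, chromosome 5: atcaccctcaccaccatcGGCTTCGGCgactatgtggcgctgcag
Kcnv2, chromosome 19: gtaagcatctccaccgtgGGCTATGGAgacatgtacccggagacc
The middle codon was a tyrosine codon (TAC or TAT) in Kcna5, Kcnq1, Kcnv2 and the first loop of Kcnk3, and a phenylalanine codon (TTT or TTC) in Kcnh2 and the second loop of Kcnk3. The silent subunit Kcnv2 thus carries the filter codons, and the accessory subunit Kcne1 lacks them.

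Library totals ran from 13274922 to 19173391 counts, and counts of a member in a library ran from 46 for Kcne1 to 7512 for Kcnk3. Counting error alone was 1.15% to 1.5% of the value for Kcnk3 and 6.21% to 14.7% for Kcne1. The heart muscle genes Myh6 (33745 to 39633 CPM, read counts scaled to library size) and Ttn (78842 to 93237 CPM) were high in every library. 3 libraries are in doubt. Wif1, which encodes a secreted Wnt inhibitor, stood at 2.55 CPM in the library labelled WntLOF RV 1, against 11.99 to 18.4 CPM in control RV. It stood at 13.5 CPM in that labelled WntLOF LV 1, against 2.62 to 3.18 CPM in control LV. Wif1 thus lay opposite to the ventricle labels of that pair. So did the water channel gene Aqp4, with 8.11 CPM in WntLOF RV 1 against 23.5 to 33.9 CPM in control RV. It had 31.2 CPM in WntLOF LV 1 against 6.88 to 8.54 CPM in control LV. The library labelled control LV 2 deviated from its group mean together with the library labelled WntLOF LV 1 (correlation 0.321 over 15494 genes, not independent replicates). WntLOF RV 3 and control RV 3, which are not counted as doubted, correlated at 0.3065. Both had over 1 CPM of the Y-linked gene Ddx3y, and control LV 2 and WntLOF LV 1 did not, so these correlations are not directly comparable. Wif1 in control LV 2 was 2.69 CPM, on the side of its ventricle label. Reads of Ddx3y were above 1 CPM in the 4 libraries numbered 3 (102 to 136 CPM) and at most 0.772 CPM in the others. By this gene the libraries numbered 3 differ in sex from the others. The labels do not name the altered gene, so no targeted gene could be checked. Ctnnb1, which encodes the Wnt effector beta-catenin, had 352 to 454 CPM in WntLOF RV and 511 to 560 CPM in control RV. Of all genes tested, 3.94% were lower without overlap in that comparison. In the LV the Ctnnb1 ranges overlapped (395 to 532 CPM in WntLOF, 426 to 598 CPM in control). The Wnt target gene Axin2 overlapped in both ventricles, with 4.47 to 7.28 CPM in WntLOF RV and 4.57 to 8.15 CPM in control RV.

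Per kilobase of exon, Kcnk3 had the highest level of the 32 tested channel genes on the lists used here, and Kcne1 the lowest of the 6 members. Over all 12 libraries Kcnk3 ran from 74.1 to 99.6 CPM per kilobase and Kcnh2 from 24.4 to 43.5 CPM per kilobase, so these ranges did not meet. Kcna5 (8.82 to 22.97 CPM per kilobase) and Kcnq1 (11.6 to 18.3 CPM per kilobase) overlapped fully and cannot be ordered. Kcnv2 ran from 2.68 to 6.41 CPM per kilobase, below every library of Kcna5 and Kcnq1. Kcne1 ran from 0.849 to 4.52 CPM per kilobase and overlapped Kcnv2. Exon lengths come from GENCODE M21, since the annotation used for counting is not given, so levels between genes are approximate. The silent subunit gene Kcng2 ranked between Kcnk3 and Kcnh2 (49.2 to 61.2 CPM per kilobase).

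**Figure D1:**
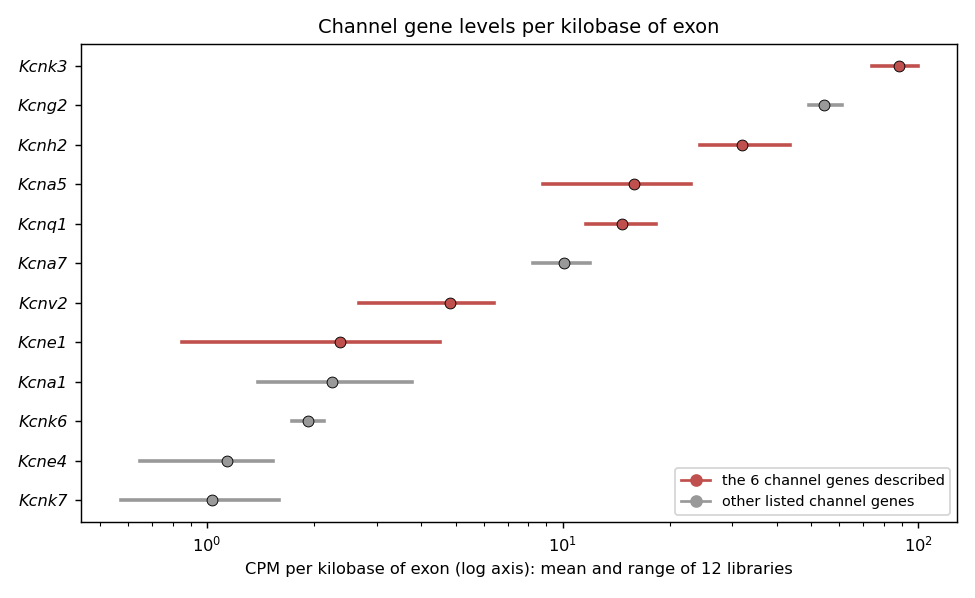
Level of the 6 described genes and 6 other listed channel genes in CPM per kilobase of exon on a log axis, with the mean as a point and the range of 12 libraries as a line. Kcnk3 lies highest at 74.1 to 99.6, Kcna5 and Kcnq1 overlap, and Kcne1 has the widest relative range of the 6 described genes, 0.849 to 4.52.

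Kcna5 (ENSMUSG00000045534) had 34.2, 48.0 and 48.1 CPM in WntLOF RV libraries 1 to 3 and 31.7, 58.9 and 51.0 CPM in WntLOF LV. In control RV it had 41.0, 25.2 and 55.5 CPM, and in control LV 51.2, 33.8 and 65.7 CPM. The 4 lowest libraries were both libraries numbered 1 of WntLOF and both numbered 2 of control, so low Kcna5 appeared in both ventricles of the same number, and all groups overlapped. In control hearts the right library was lower in each number, with RV minus LV differences of -0.32, -0.42 and -0.24 on the log2 scale. The WntLOF differences were 0.11, -0.29 and -0.08, and number 1, where the sign turned, is the pair with Wif1 opposite to its labels.

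Kcnq1 (ENSMUSG00000009545) varied little, with a 1.57-fold span over the 12 libraries. It had 58.8, 74.9 and 65.6 CPM in WntLOF RV and 60.6, 62.7 and 63.0 CPM in WntLOF LV, against 62.7, 52.8 and 51.0 CPM in control RV and 55.3, 65.8 and 47.7 CPM in control LV. The 3 WntLOF LV libraries lay close together, and the ranges of WntLOF and control overlapped in both ventricles. In GENCODE M21, 121 bases of the Kcnq1 exons (2.96%) are shared with Kcnq1ot1 on the opposite strand. Whether the counting used strand is not given, so reads in that overlap cannot be assigned. Kcnq1ot1 itself had 228 to 341 CPM.

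Kcnh2 (ENSMUSG00000038319) had 124, 211 and 168 CPM in WntLOF RV and 167, 163 and 154 CPM in WntLOF LV for numbers 1 to 3. Control RV had 150.1, 143 and 171 CPM, and control LV 118, 140.03 and 154 CPM. In the LV, all WntLOF libraries (154.4 CPM and above) lay above all control libraries (153.7 CPM and below), but the gap was narrow. The library labelled WntLOF RV 1, of the pair with Wif1 opposite to its labels, lay within the control LV range. The lowest WntLOF RV library, number 1, and the highest, number 2, enclosed the control RV range.

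Kcne1 (ENSMUSG00000039639) was the most variable member, with a 5.33-fold span over the 12 libraries. WntLOF RV had 5.89, 4.93 and 10.4 CPM and WntLOF LV 2.73, 11.1 and 14.5 CPM for numbers 1 to 3. Control RV had 4.80, 5.76 and 5.55 CPM and control LV 7.98, 10.3 and 7.26 CPM. All control RV libraries lay below all control LV libraries. The library labelled WntLOF LV 1 was the lowest of the 12 and the other WntLOF LV libraries the highest, so the WntLOF LV mean of 9.44 ± 6.06 CPM (SD, n = 3) describes none of them.

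Kcnk3 (ENSMUSG00000049265) was the steadiest member, with a 1.34-fold span. It had 364, 344 and 361 CPM in WntLOF RV and 312, 352 and 370.2 CPM in WntLOF LV, against 331, 295 and 355 CPM in control RV and 357, 396 and 387 CPM in control LV. Control RV libraries (up to 354.8 CPM) lay below control LV libraries (from 356.6 CPM), with almost no gap, and the other pairs of groups compared overlapped. In GENCODE M21, 5.76% of Kcnk3 exon bases are shared with Gm9899 on the opposite strand.

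Kcnv2 (ENSMUSG00000047298) had 29.2, 27.9 and 17.6 CPM in WntLOF RV, 32.7, 26.9 and 13.7 CPM in WntLOF LV, 25.4, 29.6 and 23.8 CPM in control RV and 21.5, 28.4 and 18.99 CPM in control LV, for numbers 1 to 3. Number 3, whose libraries had Ddx3y reads, was the lowest in each of the 4 groups. Kcna5 was highest in number 3 in 3 of the 4 groups, in WntLOF RV by only 48.13 against 48.03 CPM. Its 4 lowest libraries were the 4 highest for Kcnv2, but they are same-numbered pairs and not independent. Over the 12 libraries the Pearson r of Kcnv2 was -0.61 with Kcna5 (Spearman rho -0.74) and -0.67 with Kcne1 (-0.57). These patterns were picked after the values were seen. By Ddx3y, number 3 differs from the others in sex, so sex and number cannot be told apart here. The part of sex in these values was not tested.

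**Figure D2:**
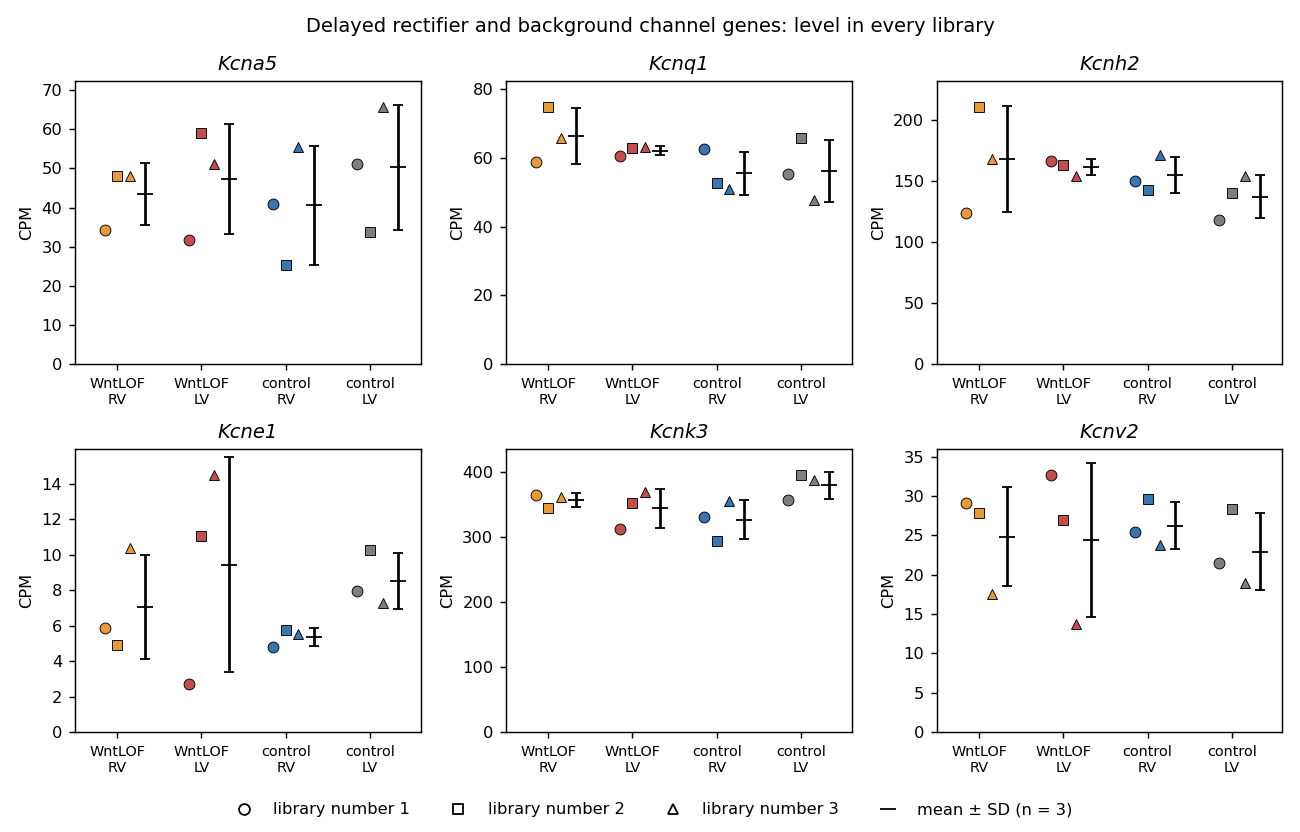
CPM of each of the 6 genes in every library, by group, with symbols for the library number and the mean ± SD (n = 3) beside the points. Control RV lies below control LV for Kcne1 (up to 5.76 against 7.26 and above), and Kcnv2 is lowest in number 3 of every group.

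**Figure D3:**
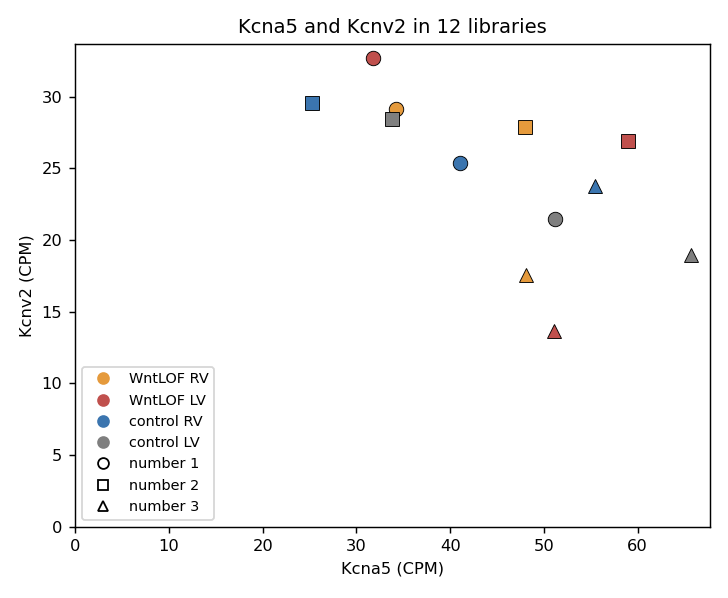
Kcnv2 against Kcna5 in CPM, 1 point per library, with colour for the group and symbol for the number. Libraries low in Kcna5 (25.2 to 34.2 CPM) had 28.4 to 32.7 CPM of Kcnv2, and number 3 libraries had 13.7 to 23.8 CPM of Kcnv2.

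The first comparison asked whether Wnt loss of function changed channel expression in the LV. None of the 6 genes was called by edgeR's quasi-likelihood test at an adjusted p of 0.05, and neither was any of the 15494 genes (0% called, with 2.85% at an unadjusted p under 0.05, and DESeq2 called 0 as well). Of the members, 4 lay above 0 and 2 below (49.1% of all genes lay above), with a median log2 fold change of 0.11, beside a median near 0 over all genes. Kcnh2 averaged 161 ± 6.37 CPM in WntLOF LV and 137 ± 17.96 CPM in control LV (SD, n = 3 each), a log2 fold change of 0.23 (SE 0.16, adjusted p = 0.999 by edgeR). It was the 1 member whose ranges did not overlap, and 3.95% of all genes were higher without overlap, as many as were lower. This lack of overlap in Kcnh2 depends on the doubted ventricle labels of the pair WntLOF 1. The library labelled WntLOF RV 1 had 124 CPM, within the control LV range. Kcnk3 averaged 345 ± 29.9 CPM in WntLOF LV and 380 ± 20.7 CPM in control LV (SD, n = 3 each), with a log2 fold change of -0.14 and a 95% interval of -0.34 to 0.06.

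The intervals of the other 4 members also included 0 in the LV. Kcnq1 had a log2 fold change of 0.14 (95% interval -0.12 to 0.40), Kcna5 -0.09 (-0.83 to 0.66), Kcnv2 0.09 (-0.56 to 0.73) and Kcne1 0.15 (-0.90 to 1.19). Leaving out the library labelled WntLOF LV 1 gave Kcne1 a value of 0.58, and leaving out WntLOF LV 3 gave -0.31. In the authors' deposited table Kcne1 had a log2 fold change of -0.33 and Kcnh2 0.285, with adjusted p-values of 0.922 and 0.841.

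In the RV the same question gave no called member and no called gene (0% of 15494, 2.7% at an unadjusted p under 0.05, and 0 by DESeq2). Of the members, 5 lay above 0 and 1 below (50.3% of all genes lay above), with a median log2 fold change of 0.12, beside a median near 0 over all genes. Kcnq1 averaged 66.4 ± 8.08 CPM in WntLOF RV and 55.5 ± 6.30 CPM in control RV (SD, n = 3 each), a log2 fold change of 0.26 (SE 0.12, unadjusted p = 0.0539 and adjusted p = 1 by edgeR). The ranges of all 6 members overlapped, where 3.61% of all genes were higher and 3.94% lower without overlap. For Kcnq1, the library labelled WntLOF RV 1 (58.8 CPM) lay below control RV 1 (62.7 CPM). In the authors' deposited table Kcnq1 had 0.26 with an interval of 0.016 to 0.50 and an adjusted p of 0.918. Summed smooth muscle and pericyte markers were 2207 to 2492 CPM in WntLOF RV and 2016 to 2116 CPM in control RV, and all 9 listed markers were detected. Rgs5 and Abcc9 dominate this sum, with 813 and 831 CPM on average over the 12 libraries. Of the 9 markers, 8 lay above 0 and 1 below, and 0 were called. Conduction system markers summed to 99.2 to 106 CPM in WntLOF RV and 77.7 to 96.8 CPM in control RV, also without overlap, and to 54.2 to 91.7 CPM in WntLOF RV and 67.0 to 77.4 CPM in control RV without Nppb. The part of these cell types in the result was not tested.

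Kcnk3 had a log2 fold change of 0.13 in the RV (95% interval -0.07 to 0.33), Kcnh2 0.12 (-0.22 to 0.46), Kcna5 0.10 (-0.65 to 0.85), Kcne1 0.40 (-0.69 to 1.49) and Kcnv2 -0.08 (-0.72 to 0.57). The Kcne1 value was 0.02 without the library labelled WntLOF RV 3. That library had 10.2 CPM of the atrial muscle gene Myl7, against at most 1.26 CPM in any other, and 10.7 CPM of Myl4, against at most 2.86 CPM. Sln, a further listed atrial marker, had 1.85 CPM there, against at most 0.167 CPM in any other. The sum of the 7 listed atrial markers was 58.2 CPM in WntLOF RV 3, against 100.5 CPM in WntLOF RV 1 and 31.0 to 78.4 CPM in control RV. This sum did not stand out, but the listed marker Nppa alone ran from 15.4 to 83.7 CPM over the 12 libraries. Of the 5 atrial markers tested for WntLOF against control in the RV, 3 lay above 0 and 2 below. Sln and Bmp10 did not pass the expression filter and are not among them. The part of atrial tissue in the Kcne1 level of WntLOF RV 3 was not tested. For Kcnk3 the genotype difference was negative in the LV and positive in the RV, and the test of that difference gave an interaction of 0.27 (SE 0.13, unadjusted p = 0.0623, adjusted p = 0.9996 by edgeR). Without the 3 doubted libraries, the Kcnk3 interaction was 0.15 and its LV genotype value -0.043. No other member reached an unadjusted p under 0.50 for the interaction, and 0% of all genes were called. An unadjusted p under 0.05 was reached by 2.01% of genes, DESeq2 called 0, and 4 of 6 members lay above 0, as did 50.9% of all genes.

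**Figure D4:**
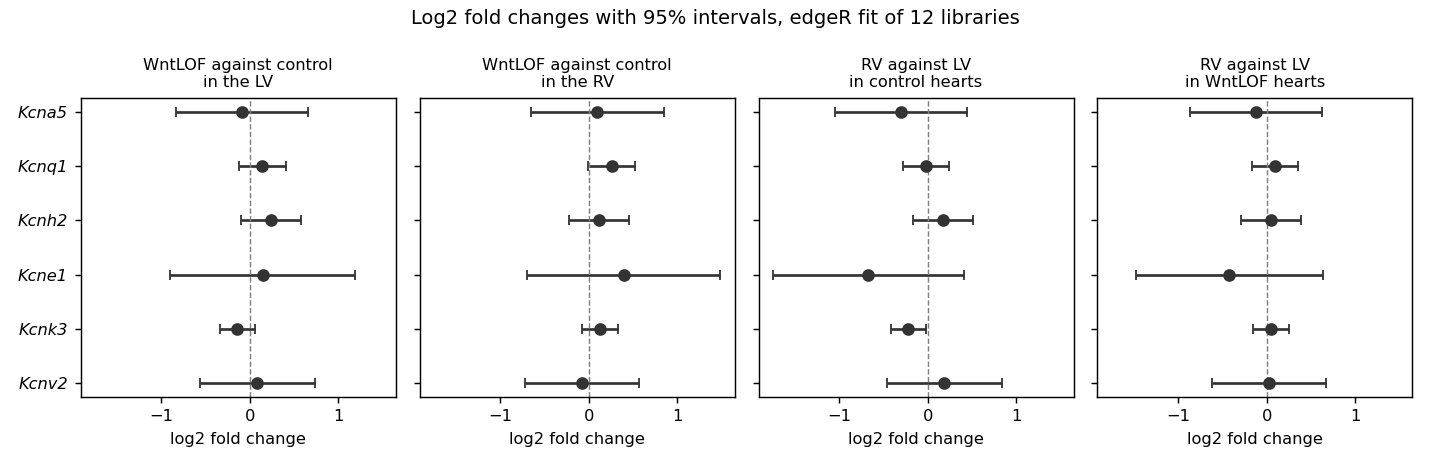
Log2 fold change (point) and 95% interval (line) of the 6 genes in 4 comparisons, from 1 edgeR fit of 12 libraries. All intervals include 0 except Kcnk3 in RV against LV of control hearts (-0.42 to -0.02), and those of Kcnk3 and Kcnq1 are the narrowest.

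Between the ventricles of control hearts, Kcna5, Kcne1 and Kcnk3 were lower in the RV in each of the 3 numbered pairs. Kcnh2 and Kcnv2 were higher in the RV in each pair, and the share of all genes with 3 like signs was not computed. In the fit of all 12 libraries no member was called, nor any gene (0% called, 4.89% at an unadjusted p under 0.05, 0 by DESeq2). Kcne1 averaged 5.37 ± 0.506 CPM in control RV and 8.51 ± 1.58 CPM in control LV (SD, n = 3 each), a log2 fold change of -0.67 (SE 0.49, adjusted p = 0.927 by edgeR). Kcna5 averaged 40.6 ± 15.1 CPM in control RV and 50.2 ± 15.99 CPM in control LV (SD, n = 3 each), a log2 fold change of -0.30 (SE 0.34, adjusted p = 0.962 by edgeR). Its SD between libraries of a ventricle exceeded its difference between ventricles. The Kcna5 value was -0.60 without control RV 3, -0.53 without control LV 2, -0.068 without control LV 3 and -0.061 without control RV 2.

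When the 6 control libraries were fitted alone with the replicate number as a block, edgeR called 326 of 14899 genes (2.19%), with 1.23% of the genes tested lower and 0.96% higher in the RV. It called 2 of the 6 members. Kcne1 was called lower with a log2 fold change of -0.66 (SE 0.15, adjusted p = 0.0260) and Kcna5 with -0.32 (SE 0.08, adjusted p = 0.0340). No label states that libraries of equal number share a heart, and the block rests on correlated deviations of same-numbered libraries. Neither member was called without control pair 2, which holds the doubted library labelled control LV 2 (Kcne1 -0.57, adjusted p = 0.207, and Kcna5 -0.28, adjusted p = 0.180). Without pair 3, Kcna5 had an adjusted p of 0.0999 by edgeR, while Kcne1 stayed called (-0.79, adjusted p = 0.0310). Without pair 1 both passed (0.0466 for Kcna5 and 0.0362 for Kcne1). With the block within genotype and all 12 libraries, neither was called (adjusted p = 0.514 for Kcna5 and 0.617 for Kcne1).

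Of the 9 marker lists, 4 had summed levels that did not overlap between control RV and control LV. Endothelial markers summed to 1144 to 1192 CPM in control RV and 1215 to 1280 CPM in control LV, and 7 of 8 lay below 0. Schwann cell and nerve markers summed to 19.8 to 31.6 CPM in control RV and 16.0 to 19.2 CPM in control LV, and all 5 tested lay above 0. Erythroid markers summed to 164 to 248 CPM in control RV and 110.2 to 139 CPM in control LV, and all 6 lay above 0. In the control libraries alone with the block, edgeR called 1 endothelial marker (Tie1, lower) and 2 erythroid markers (Hbb-bt and Alas2, higher). It also called 1 smooth muscle and pericyte marker (Cspg4, lower), from a list whose sums overlapped. These markers were named after their values were seen. Conduction system markers summed to 77.7 to 96.8 CPM in control RV and 119.96 to 172 CPM in control LV. Without the natriuretic peptide gene Nppb, which averaged 14.5 CPM in control RV and 63.0 CPM in control LV, the other 10 summed to 67.0 to 77.4 CPM in control RV and 66.6 to 86.6 CPM in control LV and overlapped. The part of these cell types in the Kcne1 and Kcna5 values was not tested.

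Kcnk3 averaged 327 ± 30.3 CPM in control RV and 380 ± 20.7 CPM in control LV (SD, n = 3 each), a log2 fold change of -0.22 (SE 0.09, unadjusted p = 0.0353, adjusted p = 0.922 by edgeR). Kcne1 and Kcnk3 were the members with no overlap between control RV and control LV, both lower, and 5.92% of all genes were lower without overlap, beside 6.68% higher. The difference by number was -0.43 in pair 2 and -0.11 and -0.13 in pairs 1 and 3, so the difference was widest in the pair with the doubted library. Kcnh2 (0.17, 95% interval -0.17 to 0.51) and Kcnv2 (0.19, -0.46 to 0.83) were higher in the RV in all 3 numbers and not called. Kcnq1 differed by -0.02 (-0.28 to 0.24), with differences by number of 0.18, -0.32 and 0.10.

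In WntLOF hearts no member was called between RV and LV, and no gene (0% called, 4.81% at an unadjusted p under 0.05, 0 by DESeq2). The ranges of all 6 overlapped, where 3.36% of all genes were higher and 3.7% lower without overlap. Of the members 4 lay above 0, as did 49.8% of all genes. With the WntLOF libraries alone and the replicate block, 0 members were called and 0.00669% of genes, which is 1 gene, lower in the RV. Kcne1 averaged 7.08 ± 2.93 CPM in WntLOF RV and 9.44 ± 6.06 CPM in WntLOF LV (SD, n = 3 each), a log2 fold change of -0.42 (SE 0.48, adjusted p = 0.9996 by edgeR). Its RV minus LV differences were 1.08 in number 1, -1.15 in number 2 and -0.48 in number 3. Without the pair labelled WntLOF 1, the Kcne1 log2 fold change was -0.74 (adjusted p = 0.505 by edgeR), and the control value in that fit was -0.67. Kcna5 had -0.12 (95% interval -0.87 to 0.63), Kcnk3 0.05 (-0.15 to 0.25), Kcnq1 0.10 (-0.17 to 0.36), Kcnh2 0.05 (-0.29 to 0.39) and Kcnv2 0.03 (-0.62 to 0.67). For all 6 genes the number 1 difference had the opposite sign to number 2, as the plot of differences by number shows.

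**Figure D5:**
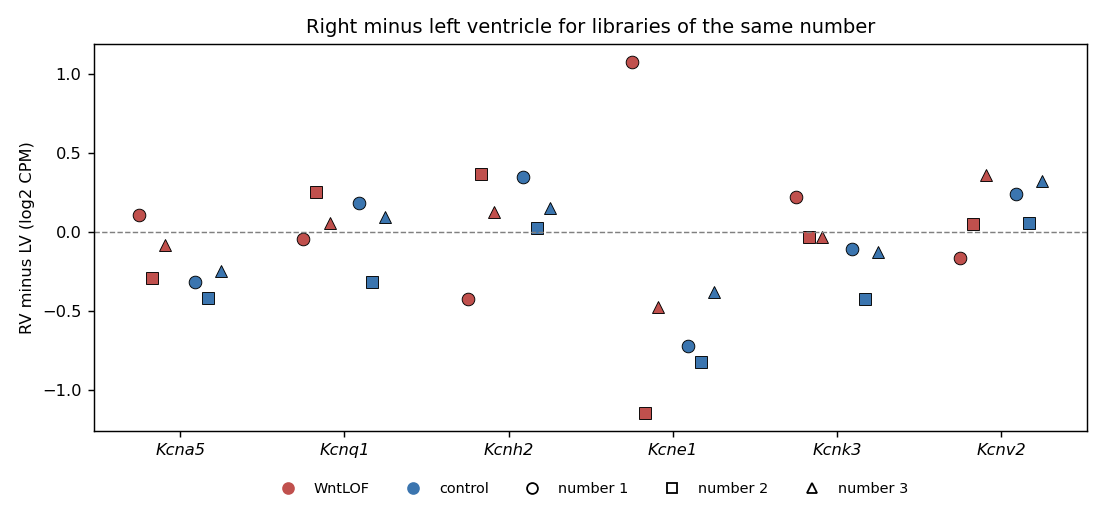
RV minus LV difference in log2 CPM between libraries of the same number, WntLOF left and control right of each gene, with symbols for the number. All 3 control differences are negative for Kcna5, Kcne1 and Kcnk3 and positive for Kcnh2 and Kcnv2. The WntLOF number 1 difference for Kcne1 is 1.08 against -1.15 and -0.48 for the other numbers.

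Related channel genes were read beside the 6 members. Of 23 other delayed rectifier pore genes 13 were tested, and of 16 silent and accessory subunits 6, of 13 other background channels 7 and of 9 scaffolds and regulators 8. None was called in any of the 5 comparisons by edgeR with all 12 libraries. In control RV against control LV, 9 of the 13 pore genes lay above 0 with a median log2 fold change of 0.32, while 4 of the 6 members lay below 0 with a median of -0.12 (51% of all genes lay above 0), beside a median near 0 over all genes. Kcna1, a Shaker-type pore gene, averaged 13.8 ± 4.08 CPM in control RV and 7.86 ± 1.08 CPM in control LV (SD, n = 3 each), and it was the single gene of the 4 lists called in the control libraries alone with the block (0.80, SE 0.13, adjusted p = 0.0029). The Schwann cell and nerve markers lay higher in control RV as well, with a median log2 fold change of 0.64 over the 5 tested, and 4 of these 5 had an unadjusted p under 0.05 with the block and 0 were called. Their part in the values of Kcna1 and the other pore genes was not tested.

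Kcna7, a further Shaker-type gene, had a log2 fold change of 0.21 (SE 0.15) for WntLOF against control in the LV. Kcng2 had 0.10 (SE 0.09), the accessory subunit Kcne4 0.24 (SE 0.25) and the beta subunit Kcnab1 0.33 (SE 0.21), all in the LV genotype comparison. The background channel genes Kcnk6, Kcnk7 and Kcnk2 averaged 7.99, 1.61 and 1.43 CPM over the 12 libraries, against 352 CPM for Kcnk3 (levels not corrected for length). In the LV genotype comparison they had 0.02 (SE 0.13), 0.18 (SE 0.34) and -0.01 (SE 0.48). Among scaffolds and regulators, the ubiquitin ligase gene Nedd4 had 0.02 (SE 0.08), the kinase A catalytic subunit gene Prkaca 0.07 (SE 0.07) and Akap9, the anchor of kinase A at the Kcnq1 channel, 0.02 (SE 0.12).

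The genes whose log2 CPM most resembled each member over the 12 libraries were sought among 12313 genes, so that high correlations arise by selection, and libraries of 1 number may share a heart. For Kcna5 they were Dnaaf5 (Pearson r 0.95, Spearman rho 0.85), Bak1 (0.95, 0.83) and Sec14l1 (0.94, 0.95). Kcnh2 was closest to St6galnac6 (0.93, 0.85), Nt5c1a (0.92, 0.85) and Paqr9 (0.90, 0.78), and Kcnk3 to Daam1 (0.92, 0.82), Usp43 (0.91, 0.94) and Gbp9 (0.91, 0.97). Kcnv2 was closest to D2hgdh (0.94, 0.73), Akap6 (0.93, 0.82) and Pkdcc (0.93, 0.88). For Kcne1 the closest were Prcp (0.88, 0.83), Igfals (0.87, 0.89) and Fbn1 (0.87, 0.86), and for Kcnq1 Usp1 (0.86, 0.80), Scrn1 (0.85, 0.80) and Polr2b (0.85, 0.76). No member was among the 3 closest genes of another.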

How the data were processed

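The authors deposited raw counts per Ensembl gene. Per the submitters' processing notes, the tools were featureCounts, Subread and edgeR. The sources used here name no aligner, version, genome build, annotation or strand use. Per the file headers, the authors' deposited comparison tables hold log2 fold changes, p-values and each library's log2 CPM. Their log2 CPM of the members differed from the values computed here by at most 0.0277. Of 41192 rows, 598 repeated rows with equal counts were left out. Groups and replicate numbers come from sample titles.

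Counts were analysed with edgeR 4.0.16 (filterByExpr by group, TMM, robust quasi-likelihood, 1 mean per group over 12 libraries), with DESeq2 1.42.0 as an alternative, in R 4.3.3. The Benjamini-Hochberg adjustment covered all genes tested. CPM are TMM-scaled, log2 CPM use a prior count of 2, and a standard error is the log2 fold change over the square root of F. Exon lengths and coding windows come from GENCODE M21, whose build may not be the authors'. Alternatives were other scalings and filters, DESeq2, blocks, and fits without single or doubted libraries. The computations were tested on simulated data. Exact tests of 3 against 3 cannot go below 0.1, so none are given.

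The members, lists and alternatives were chosen with earlier results of these data known. Named genes are the members, per list the 3 tested genes with the highest mean log2 CPM and any called gene, and per member the 3 genes of mean log2 CPM of at least 1 with the highest Pearson correlation. Marker and check genes fall outside this rule and were chosen after their values were seen. Some genes the rule names are not reported here. Kcne5 was matched as Kcne1l through RefSeq synonyms. Same-numbered RV and LV libraries had correlated deviations from their group means (0.411, 0.290 and 0.5175 in control, 0.191, 0.197 and 0.594 in WntLOF), above 0.1 in every pair. They were treated as pairs in the fits with a replicate block, the differences by number and the fits without a pair. The main fit of 12 libraries had no block. WntLOF RV 2 with LV 1 (0.2015) and WntLOF RV 1 with LV 2 (0.133) were as close or nearly so, so the data do not single out WntLOF pairs 1 and 2. Libraries numbered 3, which have Ddx3y reads, also correlated across genotypes (0.233 in the LV and 0.3065 in the RV). Correlations of this size thus also arose between libraries of different genotypes. The pairing comes from the data, not the labels.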

Additional observations from a re-analysis of the deposited data

How the results depend on the processing

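Of 732 member log2 fold changes recomputed under other settings, 49 changed sign and 5 were called, and 13 of 30 results never changed sign. Totals in place of TMM gave Kcnh2 -0.012, Kcnk3 -0.0092 and Kcnv2 -0.033 for RV against LV in WntLOF hearts. With the replicate block, Kcne1 for WntLOF against control in the LV was -0.066 (12 libraries) or -0.059 (those groups alone). No label ties libraries across genotypes, and those numbered 3 share Ddx3y reads. Without the pair labelled WntLOF 1, the LV genotype values were 0.13 for Kcna5 and -0.18 for Kcnv2, Kcnk3 was -0.031 for RV against LV in WntLOF hearts (-0.024 with the block), and the interaction was 0.082 for Kcnh2 and -0.069 for Kcne1. Without the 3 doubted libraries, Kcnq1 in control RV against LV was 0.11 (0.14 with the block and without control pair 2), Kcnk3 in WntLOF RV against LV -0.032, and the interaction 0.067 for Kcnh2 and -0.23 for Kcne1. The settings on Ddx3y and on control pairs 1 and 3 were chosen after seeing the data. Without the 4 libraries with Ddx3y, the LV genotype values were 0.10 for Kcna5 and -0.41 for Kcne1, the RV one 0.053 for Kcnv2, and Kcnv2 in WntLOF RV against LV -0.081. The cause of these changes was not tested.

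Called genes for control RV against LV numbered 0 in the fit of 12 libraries, 9 in those groups alone and 326 with the replicate block, 2 of them members. With the block they numbered 691 without control pair 1 (2 members), 67 without pair 2 and 193 without pair 3 (1 member). Without the pair labelled WntLOF 1, or without the 3 doubted libraries, 2 genes were called in either ventricle comparison. For WntLOF RV against LV the block gave 1 gene, and 241 without pair 1, and for the interaction it gave 1. Leaving out 1 library at a time, genes called ran from 0 to 1 for the RV genotype and WntLOF ventricle comparisons.

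Leaving out 1 library at a time, the LV genotype values ran from -0.30 to 0.16 for Kcna5, -0.31 to 0.58 for Kcne1 and -0.18 to 0.39 for Kcnv2. The RV ones ran from -0.15 to 0.39 for Kcna5, -0.081 to 0.29 for Kcnh2 and -0.21 to 0.12 for Kcnv2. Kcnq1 in control RV against LV ran from -0.12 to 0.11. In WntLOF RV against LV, Kcna5 ran from -0.34 to 0.067, Kcnh2 -0.14 to 0.22, Kcne1 -0.86 to 0.035, Kcnk3 -0.016 to 0.092 and Kcnv2 -0.27 to 0.30. The interaction ran from -0.064 to 0.47 for Kcna5, -0.015 to 0.21 for Kcnq1, -0.32 to 0.053 for Kcnh2, -0.18 to 0.71 for Kcne1 and -0.46 to 0.11 for Kcnv2. Other values kept their sign but moved by over 1.5 times. In the LV genotype comparison these were Kcnq1 (0.046 to 0.28), Kcnh2 (0.14 to 0.33) and Kcnk3 (-0.18 to -0.074), and in the RV one Kcnq1 (0.16 to 0.36), Kcne1 (0.016 to 0.60) and Kcnk3 (0.063 to 0.19). In control RV against LV these were Kcna5 (-0.60 to -0.061), Kcnh2 (0.069 to 0.26) and Kcnv2 (0.075 to 0.37), and in WntLOF RV against LV Kcnq1 (0.0021 to 0.17). The sum of conduction markers without Nppb was also chosen after seeing the data. Counting error was at most 14.7% of a member's value in a library, in Kcne1, whose CV over the 12 libraries was 44.3%.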

Other observations

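Several listed channel genes were absent or nearly so in these ventricle libraries. Kcna10, a Shaker-type gene, Kcnv1, a relative of Kcnv2, and the background channel genes Kcnk9, Kcnk15 and Kcnk16 had 0 counts in all 12 libraries, which allows up to 0.154 to 0.227 CPM per library (3 counts, counting error only). Kcnk9 encodes TASK-3, the closest relative of the Kcnk3 channel. Kcne2, an accessory subunit described with Kcnh2 channels, averaged 0.0333 CPM and was not tested. Of the 10 pore genes, 10 silent and accessory subunits and 6 background channel genes that were not tested, the highest value in any library was 0.849 CPM. Ppp1ca, a phosphatase gene used by all cells, is listed at 0 in all libraries, so its counting here is uncertain.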
